A study of Mus musculus with 6 samples.

Results

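The insulin-like growth factor (IGF) genes considered here were the ligands *Igf1* and *Igf2*, the receptors *Igf1r* and *Igf2r*, and the binding proteins *Igfbp2* to *Igfbp7*. They were taken by name, 10 of the 33460 genes listed in each library, and all 10 passed the filter on low values that left 14801 genes for testing. Messenger RNA levels were compared between brain mural cells, the pericytes and vascular smooth muscle cells that wrap the small vessels, and brain microvascular fragments.

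Both groups came from the same kind of animal, mice at postnatal day 6 (P6) carrying the transgenes Pdgfrb-eGFP and NG2-DsRed, and each group held 3 libraries. The brains of 3 such mice had been divided, with a sagittal part of each used for either preparation. Mural cells were sorted by flow cytometry for carrying both fluorescent reporters, so the sorted cells are those in which the *Pdgfrb* and NG2 promoters were active together. Fragments were pieces of vessel captured with beads against CD31, an endothelial surface protein. They hold endothelial cells as well as mural cells, so the comparison sets mural cells against a mixture that contains them, and no purified endothelial cells were compared here. In bulk RNA, fewer cells of a type and less RNA per cell cannot be told apart.

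IGF1 and IGF2 are secreted growth factors that signal through the receptor tyrosine kinase IGF1R. IGF2R, also the cation-independent mannose-6-phosphate receptor, takes up IGF2 and delivers it to lysosomes without signalling as a kinase. The binding proteins hold the ligands in the extracellular fluid and matrix and thereby prolong, block or localise their action, and IGFBP7 differs from the others in its low affinity for IGFs. In the postnatal brain IGF2 is known chiefly from the meninges, choroid plexus and vessels, and IGF1 from neurons, microglia and other cells.

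Levels are given as FPKM, the fragments mapped to a gene scaled for its exon length and for the size of the library, which as a level per length allows genes to be set beside each other. The protein-coding fragments behind the libraries were estimated from the steps between low values at 2.34, 1.05 and 1.06 M (M is the SI prefix mega) in mural cells 1, 2 and 3 and at 5.36 to 6.01 M in the fragments, so low levels are less precise in the sorted cells. All 9 mural marker genes, *Pdgfrb*, *Cspg4* and *Rgs5* among them, were higher in the sorted cells, by 6.47 to 12.5-fold. The sorted libraries were not free of other cell types: 12 endothelial markers summed to an FPKM of 1700 to 2198 there and 2322 to 2707 in the fragments, no marker of any list was at 0 in every mural library, and mural library 3 had a summed astrocyte marker level of 750 against 210 and 254 in the other two.

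The 250 bases before the transcription start are shown for the members with the clearest differences, since expression from these genes starts there. The sequences are RefSeq's, from a promoter table on build GRCm38.p6 that held all 10 members, and the coordinates are those of their single exact match in NCBIM37, the build of the expression files. All are written 5′ to 3′ along the gene's strand. Capitals mark the letters GGGCGG (the GC box) and CACGTG (an E-box) on either strand, so that CCGCCC is a GC box read from the other strand. The letters TATAAA were searched as well.

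The first 3 promoters belong to genes that were more than 2-fold higher in mural cells. For *Igf2* the table gave 4 starts, the files do not tell which was used, and the most downstream is shown. It lies inside the gene on the minus strand at chr7:149843402-149843651, outside every annotated exon.
Igf2: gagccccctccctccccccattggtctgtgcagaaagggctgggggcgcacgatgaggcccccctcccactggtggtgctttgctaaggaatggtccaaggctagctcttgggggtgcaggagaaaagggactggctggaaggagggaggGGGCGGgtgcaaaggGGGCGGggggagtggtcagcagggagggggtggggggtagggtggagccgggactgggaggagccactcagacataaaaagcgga
The *Igf2r* promoter lies on the minus strand at chr17:12962573-12962822, within the span of *Airn*, a long non-coding RNA gene read from the opposite strand.
Igf2r: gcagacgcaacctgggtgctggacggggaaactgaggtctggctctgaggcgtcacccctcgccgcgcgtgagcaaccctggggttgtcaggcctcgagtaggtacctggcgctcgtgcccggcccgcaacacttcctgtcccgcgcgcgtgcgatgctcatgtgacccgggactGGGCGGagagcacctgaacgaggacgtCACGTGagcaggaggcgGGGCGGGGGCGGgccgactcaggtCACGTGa
The *Igfbp7* promoter lies on the minus strand at chr5:77837071-77837320, outside annotated genes.
Igfbp7: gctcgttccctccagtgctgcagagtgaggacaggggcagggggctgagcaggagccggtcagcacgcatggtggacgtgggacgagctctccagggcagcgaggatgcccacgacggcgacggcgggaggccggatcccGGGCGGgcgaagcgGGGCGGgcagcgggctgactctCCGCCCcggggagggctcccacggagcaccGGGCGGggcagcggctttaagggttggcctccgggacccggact
The fourth belongs to *Igfbp3*, which was more than 2-fold lower in mural cells, and lies on the minus strand at chr11:7113927-7114176, outside annotated genes.
Igfbp3: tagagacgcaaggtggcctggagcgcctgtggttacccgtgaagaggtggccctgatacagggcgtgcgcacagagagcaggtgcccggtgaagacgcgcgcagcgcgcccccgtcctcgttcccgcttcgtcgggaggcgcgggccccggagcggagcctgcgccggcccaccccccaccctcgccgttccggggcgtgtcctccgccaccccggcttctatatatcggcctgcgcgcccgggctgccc

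The windows of *Igf2r* and *Igfbp7* held 3 and 4 GC boxes, the 4 windows of *Igf2* held 2, 1, 0 and 0 from the most downstream to the most upstream, and that of *Igfbp3* held none. *Igf2r* also held 2 E-boxes. None of the 3 motifs was present in the window of *Igf1*, the other lower gene, whose sequence overlaps an annotated untranslated exon and is not shown. Over 32851 promoter windows of this length, GGGCGG was present in 32.7%, CACGTG in 6.02% and TATAAA in 12.4%. The motifs were chosen after the sequences were seen. The promoter of *Igf1r*, which was not called, held 2 GC boxes, and the 2 windows of *Igfbp2*, also not called, held 3 and 0. The windows of *Igfbp4* and *Igfbp6*, not called either, held 0 GC boxes and 1 TATAAA each. That of *Igfbp5*, a higher gene, held no GC box. Higher genes and genes not called thus both included windows with and without it, so the GC box did not set the higher genes apart. The middle windows of *Igf2*, the more downstream window of *Igfbp2* and that of *Igfbp5* also overlap annotated untranslated exons of their own gene.

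Among the 10 members, 4 were higher in mural cells at an adjusted p under 0.05 (limma on log2(FPKM + 1), Benjamini-Hochberg over all genes tested), where 9.34% of all tested genes were, and 3 of these were more than 2-fold higher, where 6.43% were. The other direction held 2 members, both more than 2-fold lower, where 13.0% of tested genes were lower and 10.1% more than 2-fold lower. *Igf2*, *Igf2r*, *Igfbp7* and *Igfbp5* were higher and *Igf1* and *Igfbp3* lower, and *Igf1r*, *Igfbp2*, *Igfbp4* and *Igfbp6* were not called. The median log2 fold change of the members was 0.52, beside -0.12 over all genes tested. Every mural library lay above every fragment library in the 4 higher members, where 16.5% of all tested genes showed this.

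**Figure D1:**
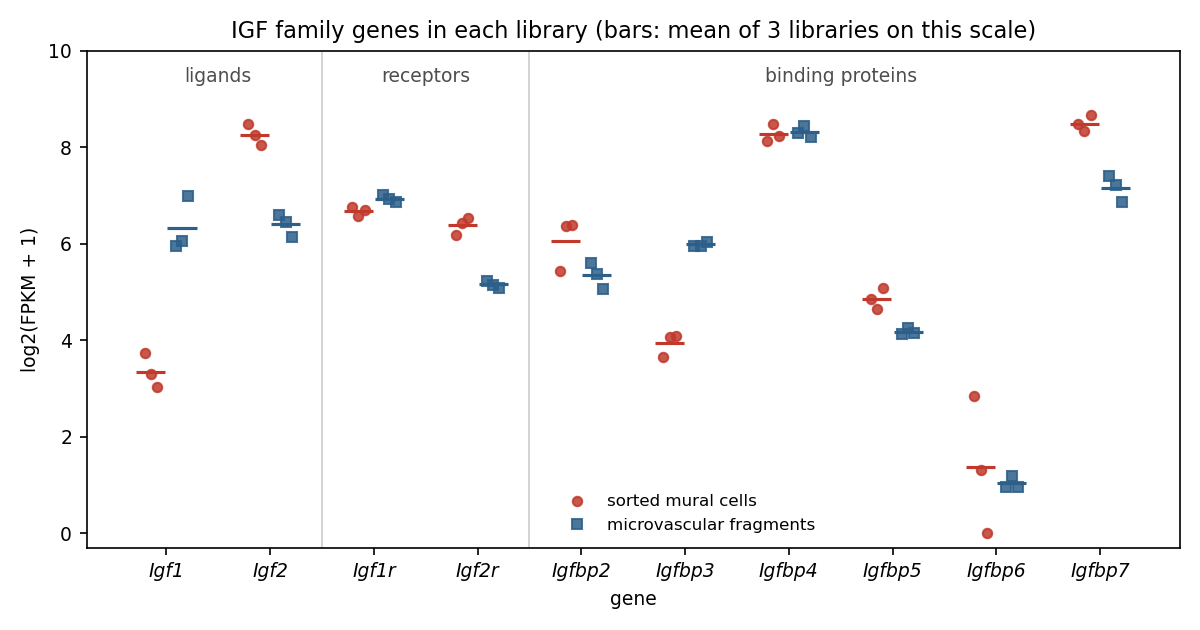
Level of each IGF gene as log2(FPKM + 1), vertical axis, in each of the 3 mural cell libraries (circles) and 3 fragment libraries (squares), with genes along the horizontal axis by role and short bars for the mean of each group on this scale. The groups lie apart for *Igf1*, *Igf2*, *Igf2r*, *Igfbp3*, *Igfbp5* and *Igfbp7*, narrowly for *Igf1r*, and overlap for *Igfbp2*, *Igfbp4* and *Igfbp6*.

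The ligands differed in opposite directions. *Igf2* (ENSMUSG00000048583, chr7:149836673-149852721, minus strand) had an FPKM of 357, 305 and 263 in the mural libraries and 96.1, 87.0 and 69.7 in the fragments. Every mural library lay well above every fragment library. The means were 308 ± 47.4 and 84.3 ± 13.4 (SD, n = 3 each), a ratio of 3.66, and the log2 fold change was 1.86 (SE 0.17, limma adjusted p = 0.00037). *Igf1* (ENSMUSG00000020053, chr10:87321010-87399792, plus strand) had an FPKM of 12.3, 8.89 and 7.15 in mural cells and 61.5, 65.4 and 125 in the fragments. The mural libraries were all below the fragments, among which library 3 stood apart. The means were 9.44 ± 2.60 and 84.1 ± 35.8 (SD, n = 3 each), 8.91-fold lower in mural cells, with a log2 fold change of -2.98 (SE 0.31, limma adjusted p = 0.00066).

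The balance of the ligands within a library followed from this. The ratio of *Igf2* to *Igf1* was 29.1, 34.4 and 36.7 in the mural libraries, whereas the ratio in the fragments was 1.56, 1.33 and 0.556. The groups did not overlap, and the exact two-sided permutation test gave p = 0.1, the smallest that 3 against 3 allows (adjusted p = 0.1 over 5 such quantities). In the fragments the levels of the ligands overlapped.

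Marker lists of other cell types differed between the groups as well, and the direction was not the same for all lists. The 8 microglia markers, *Cx3cr1* and *Csf1r* among them, were all lower in mural cells and summed to an FPKM of 161 to 202 there against 1773 to 2117 in the fragments. The 5 perivascular macrophage markers were all lower as well, with sums of 9.72 to 20.4 against 101 to 178. *Igf1* in mural cells was at 8.51 to 14.6% of its fragment mean and the microglia sum at 8.49 to 10.6%. Fragment library 3 had the highest value of both, at 149% of the fragment mean for *Igf1* but 111% for the microglia sum. The perivascular macrophage sum was at 117% in both fragment library 2 and fragment library 3. The neuron marker sum was at 45.3 to 77.8% of its fragment mean in mural cells, with 1 of 6 tested genes called lower. That of the oligodendrocyte lineage was at 44.3 to 79.5%, also with 1 of 6 called lower. The part of any of these cell types in the *Igf1* result was not tested. Fibroblast markers, which include collagen genes and *Pdgfra*, were higher in mural cells for 7 of 8 genes, with sums of 542 to 726 against 89.0 to 94.6. The ratios were 8.49 to 12.9 for the collagen genes *Col1a1*, *Col1a2* and *Col3a1*, which carry the sum. They were 7.33 for *Dcn* and 6.17 for *Lum* but 1.59 for *Pdgfra* and 1.62 for *Fbln1*, and *Slc6a13* was not called. The sort asked for both reporters, but the sorted libraries also held markers of other cell types, endothelial and astrocyte ones among them. The part of cells carrying the fibroblast markers in the *Igf2* and *Igfbp7* results was not tested. The 4 choroid plexus markers summed to 204 to 249 in mural cells and 661 to 1409 in the fragments. The part of choroid plexus cells in the *Igf2* result was not tested.

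**Figure D2:**
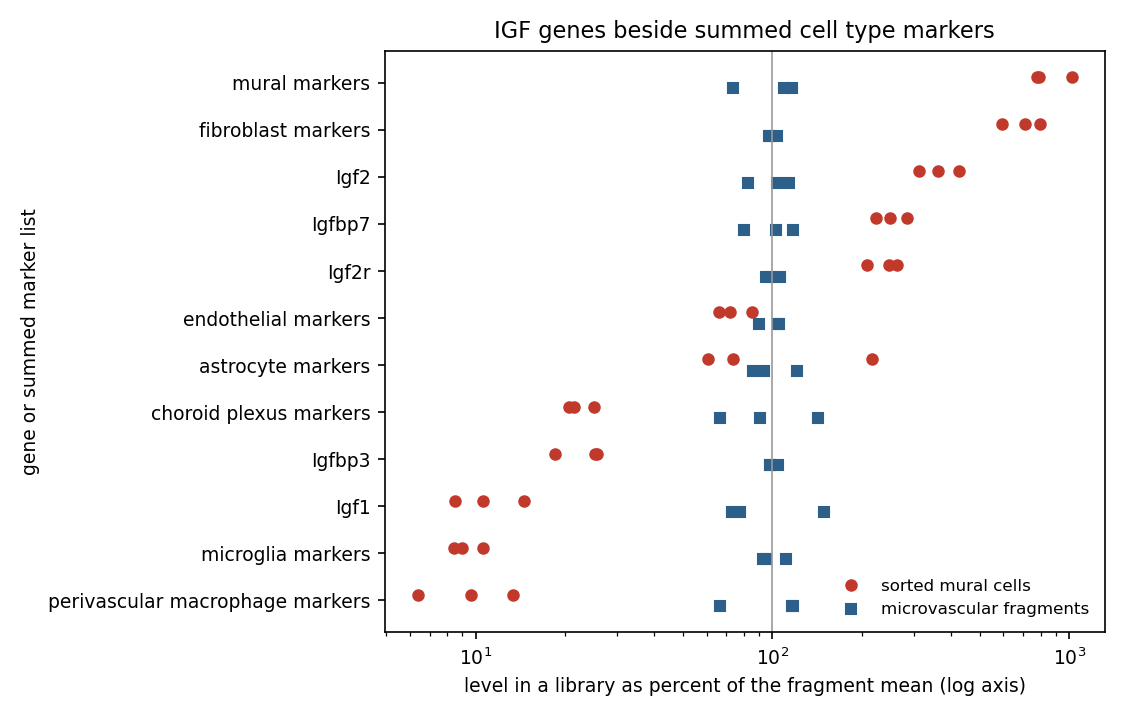
Level of the 5 IGF genes past both thresholds and of summed cell type marker lists (vertical axis) in each library, as percent of the fragment mean on a log axis, for mural cells (circles) and fragments (squares). *Igf2*, *Igfbp7* and *Igf2r* lie above 100% in every mural library but below the mural and fibroblast marker sums, and *Igf1* lies beside the microglia and macrophage marker sums. The neuron, oligodendrocyte lineage and erythroid sums are not shown.

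Of the receptors, only *Igf2r* was called. *Igf2r* (ENSMUSG00000023830, chr17:12875272-12962530, minus strand) had an FPKM of 72.2, 85.9 and 91.5 in mural cells and 36.7, 34.4 and 33.1 in the fragments. All mural libraries were above all fragment libraries. The means were 83.2 ± 9.95 and 34.7 ± 1.83 (SD, n = 3 each), 2.40-fold higher in mural cells (log2 fold change 1.23, SE 0.13, limma adjusted p = 0.00071). *Igf1r* (ENSMUSG00000005533, chr7:75097713-75371484, plus strand) had an FPKM of 108, 94.0 and 102 in mural cells and 128, 121 and 116 in the fragments. The groups did not overlap, as for 24.5% of all tested genes in this direction, but the difference was small. The means were 101 ± 6.86 and 122 ± 5.79 (SD, n = 3 each), and the log2 fold change of -0.26 (95% interval -0.51 to -0.01) did not pass the test (limma adjusted p = 0.12).

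The ratio of *Igf2r* to *Igf1r* within a library was 0.671, 0.913 and 0.893 in mural cells and 0.284 to 0.287 in the fragments (exact two-sided permutation p = 0.1, the smallest possible). *Igf1r* thus remained the more abundant receptor transcript in each of the 6 libraries.

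The binding protein genes ranged from among the most abundant transcripts to almost none. *Igfbp7* (ENSMUSG00000036256, chr5:77778265-77837070, minus strand) had an FPKM of 357, 321 and 406 in mural cells and 168, 147 and 115 in the fragments. All mural libraries were above all fragment libraries. The means were 361 ± 42.8 and 144 ± 26.8 (SD, n = 3 each), 2.52-fold higher in mural cells (log2 fold change 1.34, SE 0.17, limma adjusted p = 0.0015). *Igfbp3* (ENSMUSG00000020427, chr11:7106089-7113926, minus strand), whose product is the main IGF carrier in blood, had an FPKM of 11.6, 15.7 and 16.0 in mural cells and 61.2, 61.1 and 65.1 in the fragments. The 2 ranges were far apart and narrow. The means were 14.4 ± 2.46 and 62.5 ± 2.25 (SD, n = 3 each), 4.32-fold lower in mural cells, with a log2 fold change of -2.05 (SE 0.16, limma adjusted p = 0.00021). The ratio of *Igfbp3* was 0.231. Endothelial markers were lower for 7 of 12 genes, with a median ratio of 0.685 and a lowest ratio of 0.353. Microglia markers had ratios of 0.0708 to 0.148, perivascular macrophage markers of 0.0602 to 0.237 and choroid plexus markers of 0.0939 to 0.301. The part of endothelial cells or of these other cell types in the *Igfbp3* result was not tested.

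*Igfbp5* (ENSMUSG00000026185, chr1:72904506-72921458, minus strand), a binding protein that associates with extracellular matrix, had an FPKM of 28.0, 24.1 and 33.1 in mural cells and 16.5, 18.0 and 16.9 in the fragments. The mural libraries were all higher, by a ratio of means of 1.66, and the log2 fold change was 0.69 (SE 0.16, limma adjusted p = 0.021). Leaving out any of the fragment libraries ended this call, with limma adjusted p of 0.094, 0.069 and 0.087 without fragments 1, 2 and 3. *Igfbp2* (ENSMUSG00000039323, chr1:72871077-72899048, plus strand), the binding protein abundant in the developing brain, lies 5457 bases from *Igfbp5* and had an FPKM of 42.2, 81.9 and 82.4 in mural cells and 47.8, 40.5 and 32.4 in the fragments. Mural library 1 fell among the fragment libraries, and mural libraries 2 and 3 lay above them. The summed astrocyte markers were at 254, 210 and 750 in mural libraries 1, 2 and 3, and the part of astrocytes in the *Igfbp2* result was not tested. The log2 fold change of *Igfbp2* was 0.71 (95% interval 0.06 to 1.37, limma adjusted p = 0.12). Without mural library 1 it was 1.03 and passed (limma adjusted p = 0.012).

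*Igfbp4* (ENSMUSG00000017493, chr11:98902558-98913969, plus strand), a binding protein that blocks IGF action until it is cleaved, had an FPKM of 279, 355 and 300.3 in mural cells and 314, 345 and 297 in the fragments. The groups overlapped throughout. The log2 fold change was -0.04 (95% interval -0.34 to 0.27, limma adjusted p = 0.87), an interval that leaves out a 2-fold difference in either direction. *Igfbp6* (ENSMUSG00000023046, chr15:101974793-101979942, plus strand), which prefers IGF2 over IGF1, had an FPKM of 6.21, 1.47 and 0 in mural cells and 0.954, 1.29 and 0.940 in the fragments. These values rest on an estimated 10, 1 and 0 sequenced fragments in mural cells and 4, 5 and 4 in the microvascular fragments, so a difference was not detectable at this depth (limma adjusted p = 0.75).

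**Figure D3:**
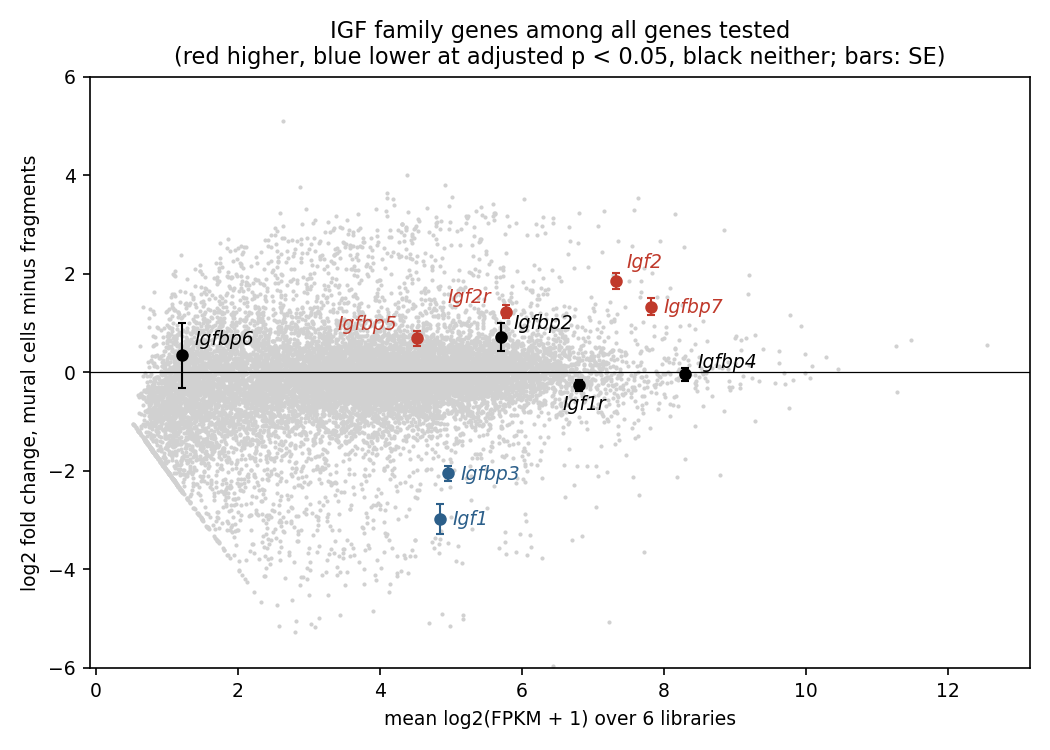
Log2 fold change, mural cells minus fragments (vertical axis), against mean log2(FPKM + 1) over the 6 libraries (horizontal axis) for all 14801 genes tested (grey; 7 lie beyond the axis) and the 10 IGF genes (red higher, blue lower, black not called; bars are SE). *Igf2* and *Igfbp7* combine a high level with a positive change, and *Igf1* and *Igfbp3* lie far below 0.

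The sorted libraries also held endothelial markers, so levels in them need not come from mural cells alone. Ordered by mean level in the sorted libraries, *Igfbp7*, *Igfbp4* and *Igf2* came first at ranks 86, 117 and 123 of the 14801 genes tested. The values of these genes overlapped. *Igf1r* followed at rank 676, apart from its neighbours, then *Igf2r* and *Igfbp2*, which overlapped. *Igfbp5* stood alone at rank 3786, *Igfbp3* and *Igf1* overlapped at ranks 6681 and 8375, and *Igfbp6* was last. The fragments gave another order, led by *Igfbp4* alone at rank 93. *Igfbp7* and *Igf1r* overlapped at ranks 345 and 458, *Igf2* overlapped with *Igf1* and *Igf1* with *Igfbp3*, *Igfbp2* overlapped with *Igf2r*, and *Igfbp5* and *Igfbp6* stood apart at the end.

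The mixture of binding protein transcripts differed accordingly. *Igfbp7* made up 46.0 ± 5.09% of the summed FPKM of the 6 genes in mural cells and 24.5 ± 2.92% in the fragments (SD, n = 3 each). *Igfbp4* made up 39.6 ± 4.41% and 54.7 ± 2.69%, and *Igfbp3* 1.83 ± 0.197% and 10.8 ± 1.35%. For these 3 genes the groups did not overlap (exact two-sided permutation p = 0.1 each, the smallest possible, adjusted p = 0.2 over 6 genes). *Igfbp2*, *Igfbp5* and *Igfbp6* differed by 1.77, 0.661 and 0.165 percentage points, with exact permutation p of 0.4, 0.2 and 0.8. The sum itself was 725 to 838 in mural cells and 527 to 614 in the fragments. The level of *Igfbp4* was not called different (ratio 0.978, limma adjusted p = 0.87), so its smaller share in mural cells goes with the larger sum.

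**Figure D4:**
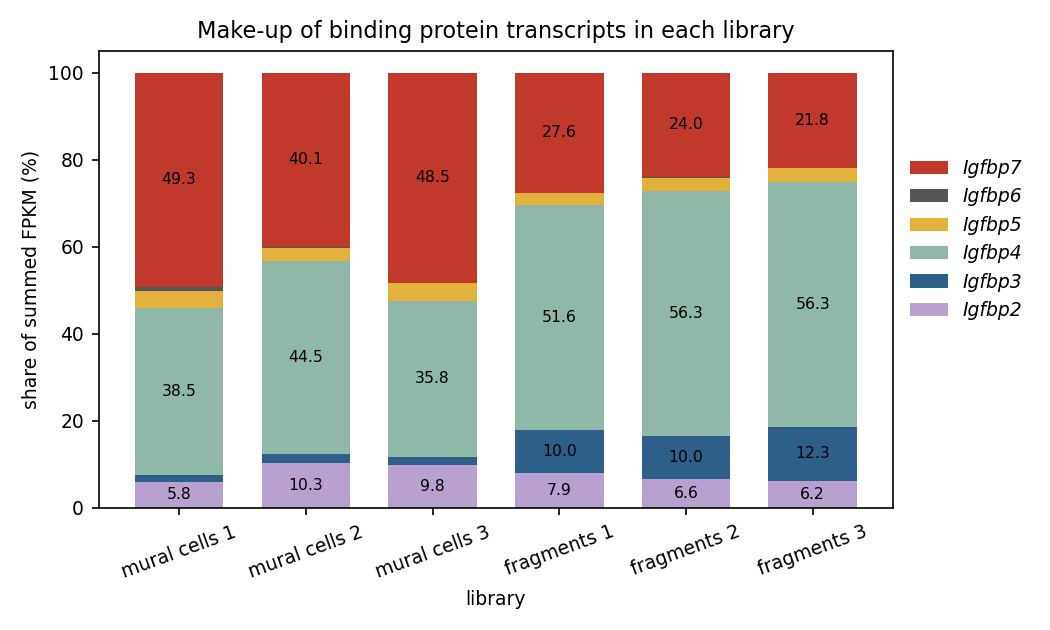
Share of each binding protein gene in the summed FPKM of the 6 genes (vertical axis, percent) in each library (horizontal axis), as stacked bars that reach 100%. *Igfbp4* is the largest share in all 3 fragment libraries, *Igfbp7* is the largest in mural libraries 1 and 3, and the share of *Igfbp3* is under 2% in each mural library.

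Other genes of the pathway were taken from a list of 44, of which 34 passed the filter. In mural cells 11 were higher, where 9.34% of all tested genes were, and 4 of them more than 2-fold (6.43% of all). In the other direction 4 were lower and 3 more than 2-fold lower, shares no larger than the 13.0% and 10.1% of all tested genes. The median log2 fold change of the 34 was 0.11. The count of higher genes was 7, 6 and 5 without fragment libraries 1, 2 and 3, the last also leaving 2 past 2-fold, and 2 were lower without each fragment library in turn. Adaptors that carry the signal from the receptors held 4 higher genes of 7 and none lower, beside 9.34% and 13.0% of all tested genes. *Irs1*, the main docking protein of the insulin and IGF1 receptors, had an FPKM of 10.6, 13.7 and 12.8 in mural cells and 2.75, 2.94 and 2.67 in the fragments, a ratio of 4.44 (limma adjusted p = 0.0013). Its paralog *Irs2* had a ratio of 0.563 and was not called (limma adjusted p = 0.21). *Gab1*, *Shc1* and *Grb10*, an imprinted inhibitor of the receptors, had log2 fold changes of 0.93, 0.87 and 0.73 (limma adjusted p = 0.0021, 0.0052 and 0.0051).

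Among the 10 genes of PI3K, Akt and FoxO, 3 were higher and 1 lower, beside the same 9.34% and 13.0% of all tested genes, so that the single lower gene is near the background. The lower one was *Pik3cb*, a catalytic subunit of PI3-kinase, with an FPKM of 3.98, 2.67 and 1.96 in mural cells and 10.8, 10.3 and 11.7 in the fragments (ratio 0.263, limma adjusted p = 0.0044). The regulatory subunit *Pik3r1* was 1.62-fold higher, and the kinases *Akt2* and *Akt1* were 1.48 and 1.33-fold higher. *Insr*, the insulin receptor, had a ratio of 0.708 and was not called (limma adjusted p = 0.073).

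The 3 genes for IGF2 mRNA-binding proteins, which bind the *Igf2* transcript among others and are expressed mainly in development, were split. *Igf2bp1* was higher in mural cells, with an FPKM of 10.2, 7.20 and 5.86 against 2.56, 1.95 and 1.21 (ratio 4.07, limma adjusted p = 0.010). *Igf2bp2* was lower, with 0.588, 0.467 and 0.882 against 5.07, 3.26 and 2.53 (ratio 0.178, limma adjusted p = 0.015), as was *Igf2bp3*, with 4.89, 3.89 and 4.90 against 13.6, 12.3 and 14.9 (ratio 0.335, limma adjusted p = 0.0031). The groups did not overlap for any of the 3, as for 16.5% of all tested genes with mural cells above and 24.5% with mural cells below. *Igf2bp2*, under 1 in every mural library, passed the filter only through the fragments, where it is high, so its call was favoured by the filter. It ended under quantile normalization (limma adjusted p = 0.069).

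Of the proteases that cleave binding proteins and the stanniocalcins that inhibit them, *Stc1* was 2.66-fold higher (limma adjusted p = 0.016), *Stc2* had a ratio of 2.48 without passing the test (limma adjusted p = 0.15), and *Htra1* had a ratio of 0.955. *Pappa* and *Pappa2* were under the filter. In the mannose-6-phosphate route, *M6pr*, the cation-dependent partner of IGF2R, was 1.44-fold higher (limma adjusted p = 0.045) and *Nagpa*, the enzyme that uncovers the sugar tag, was lower with a ratio of 0.620 (limma adjusted p = 0.044). The calls of *M6pr*, *Nagpa*, *Akt1* and *Akt2* ended with no intensity trend in limma (adjusted p = 0.10, 0.077, 0.090 and 0.078). None of the 4 genes of the growth hormone axis was called by limma, *Ghr* having a ratio of 1.01 and *Stat5a* of 0.296 (limma adjusted p = 0.059). *Igfbp1*, *Igfals*, *Igfbpl1*, *Ins1*, *Ins2*, *Insrr*, *Irs4* and *Igf2as* were under the filter as well, and *Ins1* was listed at 0 in every library.

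**Figure D5:**
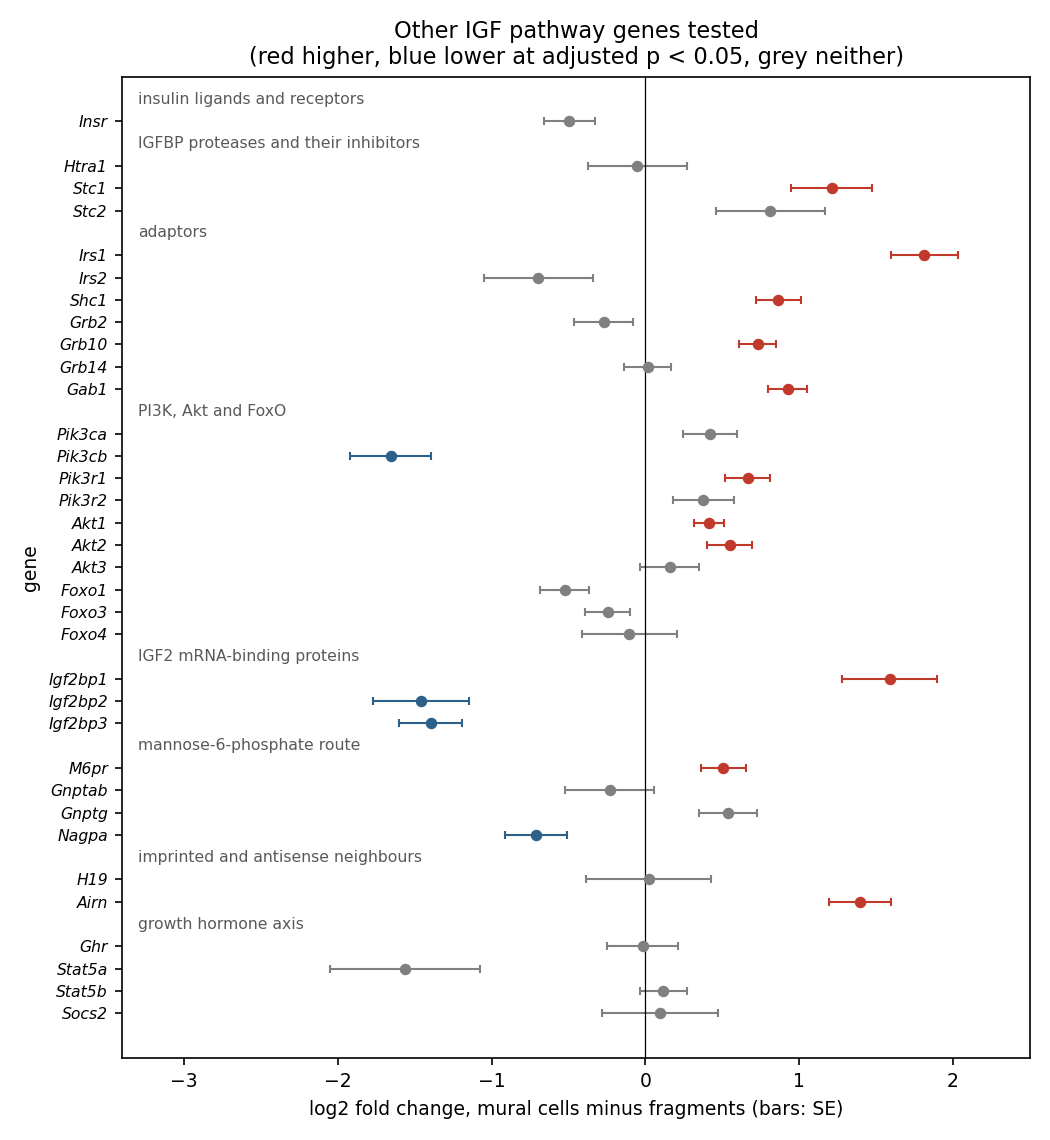
Log2 fold change, mural cells minus fragments (horizontal axis, bars are SE), of the 34 pathway genes tested (vertical axis), grouped by role and marked red where higher, blue where lower and grey where not called. *Irs1*, *Igf2bp1* and *Airn* lie farthest to the right, and *Pik3cb*, *Igf2bp2* and *Igf2bp3* are the lower genes past 2-fold.

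Some members share ground with other genes. *H19*, the imprinted non-coding RNA 72624 bases from *Igf2*, had an FPKM of 46.1, 13.0 and 28.1 in mural cells and 22.1, 29.9 and 24.6 in the fragments, and the groups overlapped. *Airn*, which runs antisense to *Igf2r*, had 49.9, 30.6 and 36.7 against 15.2, 14.2 and 12.5 (ratio 2.79, limma adjusted p = 0.0028). Its exons share 0 bases with those of *Igf2r*. Exons of *Igf2as* cover 1.78% of the *Igf2* exon bases from the opposite strand, at an FPKM of at most 1.94, and exons of *Polr2b*, at 24.9 to 34.6, cover 7.01% of those of *Igfbp7*. The strand setting of the authors' quantification was not given in the sources used here, so reads in these stretches, and unspliced reads of *Airn* and *Igf2r*, may not be separated by strand.

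The profiles most like those of the 3 members more than 2-fold higher were found by Euclidean distance of centred log2(FPKM + 1) over the 6 libraries, among 8301 genes. Nearest to *Igf2* were *Fam101a*, *Farp1* and *Ecm2*, at distances of 0.227 to 0.281 and ratios of 3.48 to 4.12. *Igf2r* lay nearest to *Lix1l*, *Dag1* and *Rhbdf1*, at distances of 0.156 to 0.187 and ratios of 2.33 to 2.56. For *Igfbp7* the genes were *Rcn3*, *Sdhc* and *Hunk*, of which *Rcn3* was close at 0.0493 with a ratio of 2.57 and the others lay at 0.222 and 0.246.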

How the data were processed

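RNA from 3 sorted mural cell and 3 microvascular fragment preparations was sequenced. The deposited values are FPKM per Ensembl gene, which the authors made with TopHat2 2.0.4 on NCBIM37, duplicate removal with Picard 1.92, and Cufflinks 2.2.1. RNA was depleted of ribosomal RNA and made into libraries with a low-input stranded kit. Symbols and coordinates were taken from GENCODE vM1 (NCBIM37).

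A gene was tested where 3 or more libraries had an FPKM of 1 or above. Groups were compared with limma 3.58.1 (R 4.3.3) on log2(FPKM + 1) with an intensity trend, and Benjamini-Hochberg adjusted over all genes tested. A fold change on this scale understates that of low genes, and ratios are of mean FPKM. Shares and within-library ratios were compared by an exact two-sided permutation test in SciPy 1.17.1. On data simulated at the relative depths of these libraries, the share of false calls past 2-fold was above the adjusted p threshold. The simulation set the same spread for every gene, so it does not give the share of false calls in these data. FPKM carries no read counts. The depth was estimated from the value of 1 fragment in genes with a single transcript, where at least 98.6% of low values were whole within 0.1 fragment.

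Members, marker and pathway lists were chosen with earlier results of these data known, and 1 gene of the pathway list is not reported here. Genes named are the members, the listed genes, and for each member higher by over 2-fold the 3 expressed protein-coding genes nearest in profile. Where nothing ties libraries to separate animals, p-values measure the spread between these libraries. Other pseudocounts, filters and scalings, a replicate block, a fit with no trend and leaving out each library were tried.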

Additional observations from a re-analysis of the deposited data

How the results depend on the processing

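The 4 higher and 2 lower members, and the 3 and 2 past 2-fold, were counted again under 8 other settings (a pseudocount of 0.1, no filter, a filter at FPKM 5, genes at 0 in a whole group left out, median-ratio scaling, quantile normalization, a replicate block, no intensity trend), with the same counts. Leaving out 1 library gave 3 to 5 higher, 3 to 4 past 2-fold higher, and 2 lower and 2 past 2-fold lower. The ratios of *Igf1*, *Igf2*, *Igf2r*, *Igfbp3* and *Igfbp7* then ranged over 0.0954 to 0.149, 3.37 to 3.94, 2.28 to 2.55, 0.219 to 0.254 and 2.29 to 2.75, with limma adjusted p of at most 0.0067. Quantile normalization moved the median log2 fold change of all genes by 0.13. The log2 fold change of *Igfbp4*, -0.037 with all libraries, ranged from -0.14 to 0.039 on leaving out 1 library and turned positive without mural library 1 (0.039) and without fragment library 2 (0.022), and that of *Igfbp6* turned to -0.21 with a pseudocount of 0.1. Its share difference of 0.165 percentage points ranged from -0.0897 to 0.339 on leaving out 1 library, the lowest without mural library 1. *Igfbp6* had no value at a filter of FPKM 5 or without mural library 1, mural library 2 or fragment library 2. Of the pathway genes, 11 were higher, and 8 to 11 under the 8 other settings, 9 with quantile normalization and 8 with no intensity trend, and 5 to 10 when 1 library was left out, with 7, 6 and 5 without fragment libraries 1, 2 and 3. Those past 2-fold numbered 2 to 5, with 2 without fragment library 3. The 4 lower genes became 2 to 4, with 2 without each of the fragment libraries in turn. Over all genes, the 1383 higher became 842 to 1316 and the 1927 lower 719 to 2127 when 1 library was left out, and the 1493 past 2-fold lower became 607 to 1733, and 948 at a filter of FPKM 5, where fewer genes are tested. The cause of the other changes was not tested.

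Libraries share replicate numbers across the groups, but no source says that a number marks a brain. Deviations of same-numbered libraries from their group means correlated at 0.020 to 0.082 and those of other pairs at -0.061 to 0.010, each library correlating best with its own number. With the replicate block, limma gave adjusted p of 0.0035 for *Igf1*, 0.00065 for *Igf2*, 0.0045 for *Igf2r*, 0.0012 for *Igfbp3*, 0.0061 for *Igfbp7* and 0.0495 for *Igfbp5*, and no member call changed. Of the pathway genes 9 were then higher and 4 lower, the calls of *Akt1*, *M6pr* and *Nagpa* ending (limma adjusted p = 0.055, 0.080 and 0.053) and *Stat5a* passing (0.043).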
